A study of Homo sapiens with 8 samples.

Results

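The genes described here are those for the proteins of the cytosolic ribosome. They were chosen by name, as protein-coding genes whose GENCODE symbol starts with RPL or RPS followed by a digit, together with RPLP0, RPLP1, RPLP2 and RPSA, without the RPS6K kinases, RPS19BP1 and the Y chromosome. This gave 88 of the 60725 genes counted, spread over 21 chromosomes: 43 genes of the large subunit, 31 of the small subunit, 3 of the P stalk, 8 close copies with an L at the end of the symbol or before its last number (L-type paralogues), and 3 readthrough genes that join a ribosomal protein gene to its neighbour. Of these, 84 had enough reads to be tested. RPL10L had 1 read in all 8 libraries together, and RPS10-NUDT3, RPL36A-HNRNPH2 and RPL17-C18orf32 had 0 reads in each library. From counting error only, 0 reads allow up to 0.136 CPM (counts scaled to a common library total) in the shallowest library. However, at least 99.96% of the exon bases of these 3 readthrough genes overlap another gene. A read that overlapped the readthrough gene and the gene it contains was counted for neither, so the 0 reads set no limit on their levels.

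The libraries are polyadenylated RNA of HAP1, a near-haploid human line derived from a chronic myeloid leukaemia. All groups came from a single clone, SC9, that stably carries dCas9-KRAB, an inactive Cas9 fused to a repressor domain which silences the promoter it is guided to. Control cells (3 libraries) carried a lentiviral guide RNA against ADAM22, NELFE knockdown cells (3 libraries) one against NELFE and NELFB knockdown cells (2 libraries) one against NELFB, and all were collected 144 h after transduction and puromycin selection. NELFE and NELFB are subunits of the negative elongation factor NELF, which holds RNA polymerase II shortly after it has started a transcript, and the comparison asks how gene expression changes when NELF is depleted. Total counts ran from 22037423 to 24444185 per library. No cell without a guide RNA is among the groups, and because the cells were clonal the libraries do not sample differences between clones.

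Each ribosome holds 1 copy of nearly every ribosomal protein, and growing cells make their mRNAs in large and coordinated amounts. Most of these mRNAs begin at a C that is followed by an unbroken run of pyrimidines, the terminal oligopyrimidine tract, through which mTOR signalling and LARP1 control their translation and stability. Surplus ribosomal proteins are degraded, and some of them, such as RPL5 and RPL11, bind MDM2 when ribosome assembly is disturbed and so stabilise p53.

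The start of each mRNA could be read for 70 of the 88 genes in the RefSeq promoter table, build GRCh38.p14. A run of at least 5 pyrimidines whose first base is C began within 10 bases of the annotated start in 61 of these 70 genes (87.1%), against 38.4% of the 27305 genes in the table. The windows below run from 10 bases before the start to 20 bases from it, 5′ to 3′ on the strand of the gene, with the pyrimidine run in capitals. The first 6 belong to the genes with the largest decreases after NELF knockdown. RPL22, RPS23 and RPS24 follow as genes that carry a run and did not fall, and RPS27L and RPL7L1 as genes without one. The windows lie at chr3:170870176-170870205 on the minus strand for RPL22L1, chrX:101391001-101391030 (plus) for RPL36A, chr3:39406710-39406739 (plus) for RPSA, chr12:56116623-56116652 (plus) for RPL41, chr9:127451387-127451416 (minus) for RPL12 and chr15:69452808-69452837 (plus) for RPLP1. The others lie at chr1:6199576-6199605 (minus) for RPL22, chr5:82278335-82278364 (minus) for RPS23, chr10:78033853-78033882 (plus) for RPS24, chr15:63157458-63157487 (minus) for RPS27L and chr6:42879606-42879635 (plus) for RPL7L1.
RPL22L1: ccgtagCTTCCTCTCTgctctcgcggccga
RPL36A: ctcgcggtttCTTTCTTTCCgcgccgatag
RPSA: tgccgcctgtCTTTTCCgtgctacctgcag
RPL41: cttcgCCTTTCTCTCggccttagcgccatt
RPL12: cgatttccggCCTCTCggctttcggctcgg
RPLP1: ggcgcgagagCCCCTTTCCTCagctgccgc
RPL22: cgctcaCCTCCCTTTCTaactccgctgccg
RPS23: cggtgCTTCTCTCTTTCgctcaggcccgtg
RPS24: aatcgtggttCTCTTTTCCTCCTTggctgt
RPS27L: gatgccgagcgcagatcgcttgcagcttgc
RPL7L1: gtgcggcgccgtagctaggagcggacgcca

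The guide targets were read first. NELFE stood at 50.6, 49.5 and 47.8 CPM (normalized by TMM, the scale of all levels per library given here) in control cells and at 2.41, 2.38 and 2.98 CPM in the NELFE knockdown, so that it decreased by 94.8% (log2 fold change -4.26 ± 0.11 SE, adjusted p = 2.15e-08, quasi-likelihood test of edgeR, Benjamini-Hochberg adjusted over all genes). NELFB stood at 74.6, 72.8 and 78.7 CPM in control cells and at 3.08 and 2.76 CPM in the NELFB knockdown, so that it decreased by 96.1% (-4.69 ± 0.11, adjusted p = 4.02e-09 by the same test). The target of the control guide, ADAM22, had 12.6 CPM ± 1.29 (SD, n = 3) in the control group, 39.3 ± 8.92 (n = 3) in the NELFE knockdown and 38.2 ± 3.69 (n = 2) in the NELFB knockdown. It was thus lower in the control cells, whose guide is directed at it (1.62 ± 0.14 higher on the log2 scale in the pooled knockdowns, adjusted p = 7.43e-05, edgeR).

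The cell type could be checked only against what HAP1 lacks. Of the blood-cell markers, PTPRC, SPI1, GATA1, HBG1 and CD3E stayed below 0.22 CPM in the mean of every group and could not be tested. CD34, a stem cell surface protein, had 0.0990 CPM ± 0.0485 (SD, n = 3) in the control group, 0.742 ± 0.526 (n = 3) in the NELFE knockdown and 1.84 ± 1.34 (n = 2) in the NELFB knockdown. It was called higher in the pooled comparison (adjusted p = 0.0142, edgeR) and in the NELFE (adjusted p = 0.0452) and NELFB (adjusted p = 0.00541) knockdowns, with 3, 3 and 1 reads in the control libraries, 16, 6 and 28 in the NELFE and 67 and 21 in the NELFB libraries, too few for a fold change. Of 4 epithelial markers, KRT19 had no reads, EPCAM was too low to test, and the keratin genes KRT8 and KRT18 both rose in the pooled comparison, KRT8 from 3.49 CPM ± 0.568 (n = 3) in control cells to 9.13 ± 3.81 (n = 3) and 13.7 ± 6.62 (n = 2). VIM, ACTB and GAPDH did not pass the test (0 of 3). These markers moved with the knockdown, and their part in the results below was not tested.

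Ribosomal protein mRNAs made up a smaller part of the sequenced RNA after either knockdown. They took 5.13, 4.99 and 4.98% of the counts in the control libraries, 4.36, 4.30 and 4.29% in the NELFE knockdown and 4.35 and 4.08% in the NELFB knockdown. The highest knockdown library therefore lay below the lowest control library, and the 95% Wilson interval of each share reached at most 0.00887 percentage points to either side. These intervals cover counting error only, because reads carry no molecular identifiers. The group means were 5.03% ± 0.0811 (SD, n = 3), 4.32% ± 0.0387 (n = 3) and 4.22% ± 0.194 (n = 2). No standard of known amount was added, so a share is relative to the other mRNAs, and in bulk RNA fewer cells with a given level and less RNA per cell cannot be told apart.

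The decrease was seen across the genes and not only in their sum. Set against the mean of the control libraries as log2(CPM + 0.5), the median of the 84 genes was -0.23, -0.26 and -0.19 in the NELFE libraries and -0.23 and -0.33 in the NELFB libraries. Each control library set against the other 2 gave -0.04, 0.00 and 0.04. Between 74 and 82 of the 84 genes were below the control mean in each knockdown library, and the second NELFB library held the lowest values.

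**Figure D1:**
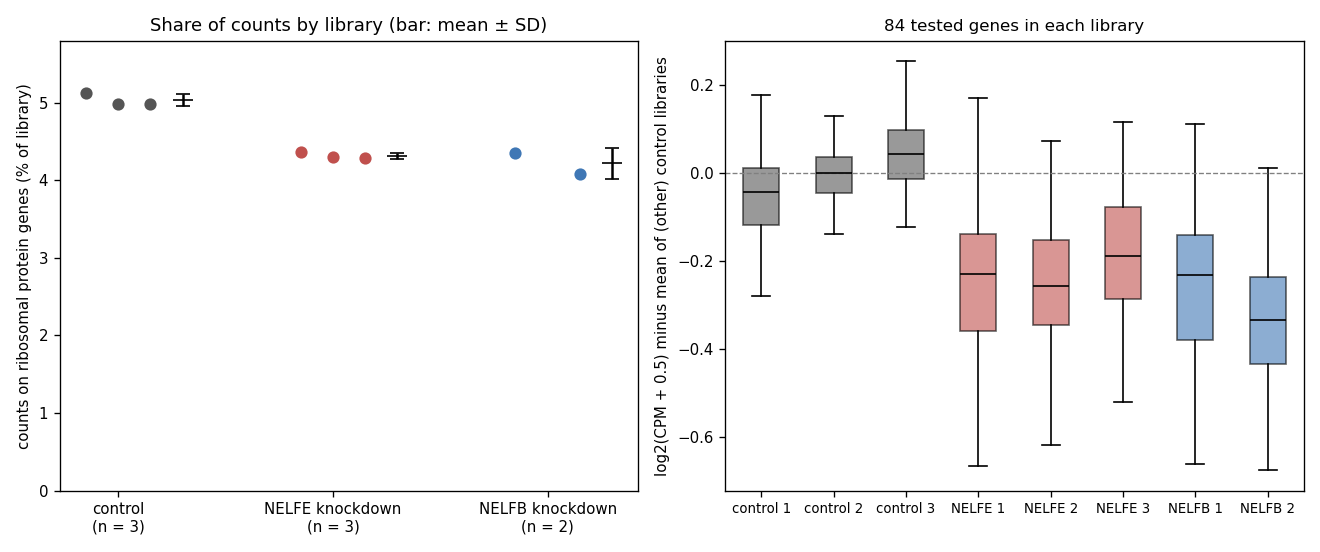
Left, percent of all counts that fell on the ribosomal protein genes in each library (points), with the mean ± SD of each group: the 5 knockdown libraries lie between 4.08 and 4.36%, below the 3 control libraries at 4.98 to 5.13%. Right, log2(CPM + 0.5) of the 84 tested genes in each library minus the mean of the control libraries (for a control library, of the other 2), as boxes of the quartiles with the median and whiskers to 1.5 box lengths.

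With both knockdowns set against control, 52 of the 84 genes fell and 0 rose (quasi-likelihood test of edgeR, Benjamini-Hochberg adjusted p under 0.05). In the same fit 12.7% of all 16367 genes tested fell and 13.3% rose. Among the fifth of genes with the highest mean CPM, which held 74 of the 84, 17.7% fell. The median log2 fold change of the 84 genes was -0.27, at which a level has decreased by 17.1%, with a median SE of 0.07, while the median over all genes tested was 0.00. At an unadjusted p under 0.05, 64 were lower and 1 higher (18.8% and 19.7% of all genes), and DESeq2 called 57 lower and 0 higher (12.3% and 12.7% of all genes).

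Most of the changes were modest. The fitted change was below 0 for 81 of the 84 genes, against 50.3% of all genes, and the quartiles were -0.33 and -0.16 on the log2 scale. The decrease was over 1.5-fold for 5 genes, RPL22L1, RPL36A, RPSA, RPL41 and RPL12, and for 3.09% of all genes tested. In 61 of the 84 genes every knockdown library was below every control library, which held for 14% of all genes tested, and in 0 genes was every knockdown library above every control library, against 14.8% of all genes. Of the 52 genes that fell, 50 were among these 61. The exceptions were RPL7L1 and RPS12. Across the 84 genes the fold change had a Spearman correlation of -0.10 with the control level in CPM and of -0.07 with transcript length, given as a description over genes that share the same libraries.

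**Figure D2:**
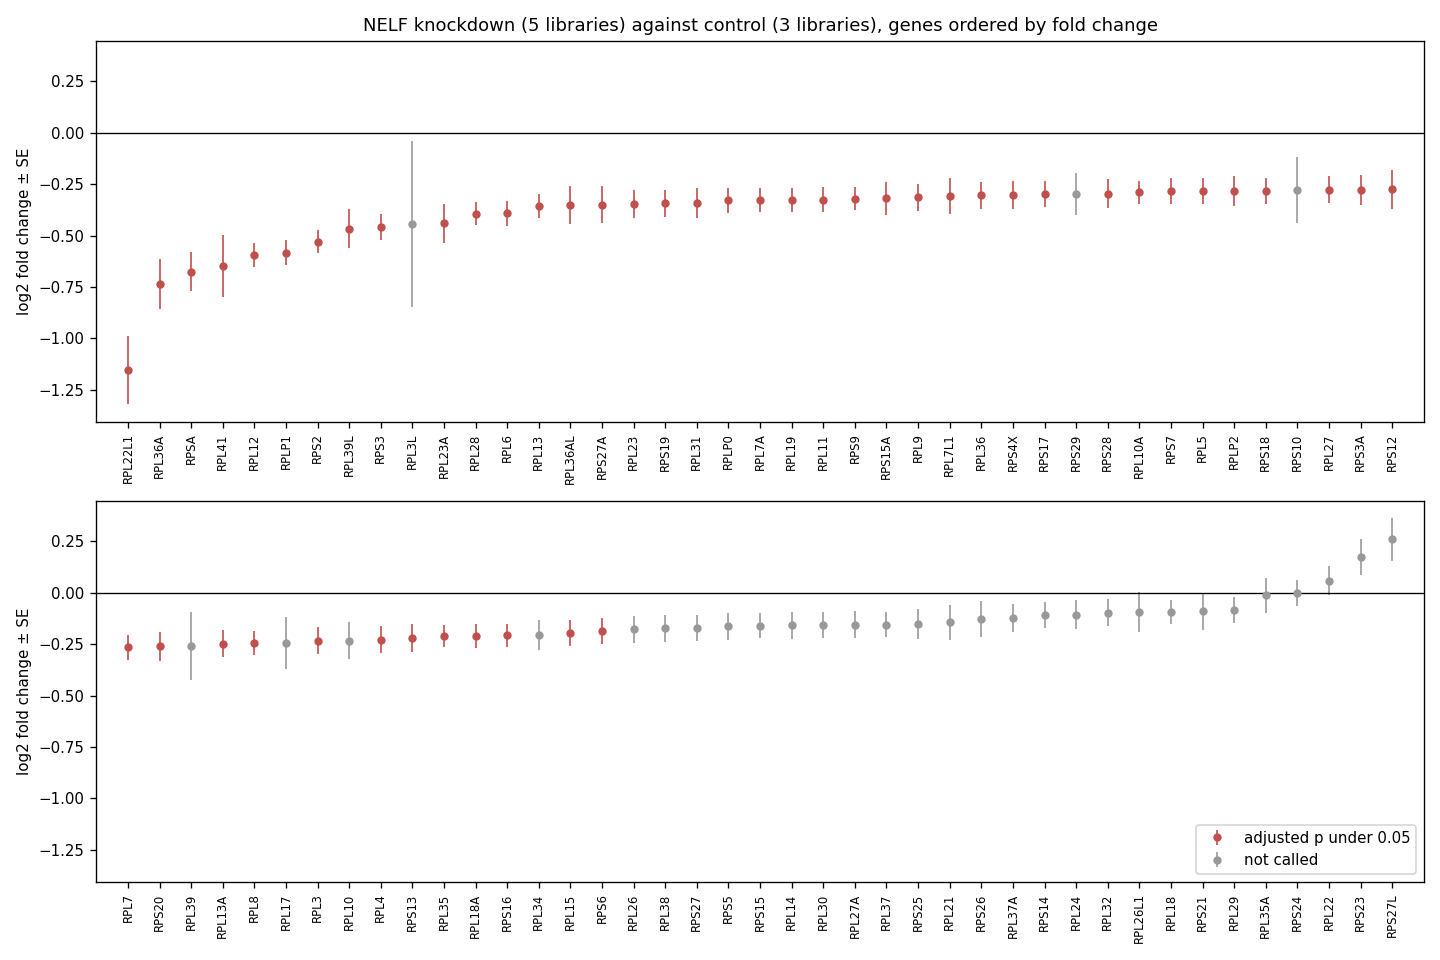
Log2 fold change ± SE of 82 of the 84 tested genes, 5 NELF knockdown libraries against 3 control libraries, in order of size over both rows. Red points (50) passed an adjusted p of 0.05 and all lie below 0, from RPL22L1 at -1.16 upward, and only RPL22, RPS23 and RPS27L lie above 0, none of them called. The tested genes that are not shown also passed and lie below 0.

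The largest decrease belonged to RPL22L1 (ENSG00000163584.17, chr3:170864875-170870208, GRCh38), the paralogue of RPL22, a large-subunit protein. Its level was 93.2, 122 and 127 CPM in control cells, 51.2, 59.1 and 65.6 CPM in the NELFE knockdown and 38.2 and 42.4 CPM in the NELFB knockdown. The 3 groups did not overlap, and the fitted level decreased by 55.1% (log2 fold change -1.16 ± 0.17 SE, adjusted p = 0.00109, edgeR). RPL36A (ENSG00000241343.9, chrX:101390824-101396155), a zinc-binding protein of the large subunit near the exit site of tRNA, was at 40.4, 54.3 and 40.7 CPM in control cells, 23.7, 30.4 and 26.1 CPM in the NELFE knockdown and 24.3 and 30.9 CPM in the NELFB knockdown. All 5 knockdown libraries were below the controls and the 2 knockdowns overlapped (-0.74 ± 0.12, adjusted p = 0.00181, edgeR). Of the annotated exon bases of RPL36A 22.4% are shared with another gene, so part of its reads may not have been counted.

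RPSA (ENSG00000168028.13, chr3:39406716-39426255) encodes a small-subunit protein also known as the laminin receptor. It stood at 719, 749 and 788 CPM in control cells, 489, 489 and 545 CPM in the NELFE knockdown and 439 and 391 CPM in the NELFB knockdown (-0.68 ± 0.09, adjusted p = 0.000756, edgeR). As with RPL22L1, the NELFB libraries were the lowest. RPL41 (ENSG00000229117.8, chr12:56116590-56117967), which encodes a very short and basic peptide of the large subunit, was at 95.5, 81.7 and 99.6 CPM in control cells, 63.5, 53.6 and 79.4 CPM in the NELFE knockdown and 52.7 and 45.4 CPM in the NELFB knockdown. The third NELFE library came close to the second control library, and the fitted level decreased by 36.1% (-0.65 ± 0.15, adjusted p = 0.0107, edgeR).

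RPL12 (ENSG00000197958.12, chr9:127447674-127451406) and RPLP1 (ENSG00000137818.11, chr15:69452814-69456205) encode parts of the stalk region, where elongation factors bind the large subunit. RPL12 was at 692, 660 and 670 CPM in control cells, 425, 455 and 470 CPM in the NELFE knockdown and 448 and 432 CPM in the NELFB knockdown, and decreased by 33.8% (-0.60 ± 0.06, adjusted p = 0.000132, edgeR). RPLP1 was at 1333, 1294 and 1372 CPM in control cells, 913, 873 and 929 CPM in the NELFE knockdown and 842 and 889 CPM in the NELFB knockdown, and decreased by 33.3% (-0.58 ± 0.06, adjusted p = 0.000158). For both genes the gap between control and knockdown libraries was several times the spread within either.

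The other proteins of the P stalk fell too. RPLP0, on which the stalk is built, fell by 0.33 ± 0.06 on the log2 scale (adjusted p = 0.00269, edgeR), from 1244 CPM ± 19.5 (SD, n = 3) to 998 ± 31.7 (n = 3) and 979 ± 42.2 (n = 2). RPLP2, the partner of RPLP1, fell by 0.28 ± 0.07 (adjusted p = 0.0168, edgeR), from 458 CPM ± 16.9 (n = 3) to 396 ± 17.7 (n = 3) and 345 ± 1.98 (n = 2). The call of RPLP2 was lost without the third control library. All 3 stalk genes had every knockdown library below every control library.

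RPL5 and RPL11, which enter the large subunit together and can bind MDM2, changed by similar amounts. RPL11 was at 1032, 1070 and 1048 CPM in control cells, 798, 819 and 859 CPM in the NELFE knockdown and 891 and 822 CPM in the NELFB knockdown (-0.32 ± 0.06, adjusted p = 0.00351, edgeR). RPL5 was at 1039, 1119 and 1131 CPM in control cells, 900, 887 and 920 CPM in the NELFE knockdown and 948 and 848 CPM in the NELFB knockdown (-0.28 ± 0.06, adjusted p = 0.00828). RPS19, the small-subunit gene most often mutated in Diamond-Blackfan anaemia, fell by 0.34 ± 0.07 on the log2 scale (adjusted p = 0.00383, edgeR), from 989 CPM ± 39.3 (SD, n = 3) to 809 ± 14.6 (n = 3) and 736 ± 12.2 (n = 2).

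Both subunits took part. In the large subunit 25 of 43 genes fell and 0 rose, with a median log2 fold change of -0.24, and in the small subunit 20 of 31 fell and 0 rose, with a median of -0.28. The P stalk had 3 of 3 lower and the L-type paralogues 4 of 7. In the same pooled comparison 12.7% of all genes tested fell and 13.3% rose. Other small-subunit genes with large decreases were RPS2 (-0.53 ± 0.06, adjusted p = 0.000198) and RPS3 (-0.46 ± 0.06, adjusted p = 0.000656), which are named because of these values. RPS3 was at 1114, 1153 and 1177 CPM in control cells, and at 835, 831, 863, 872 and 780 CPM in the 5 knockdown libraries. No knockdown library came near the controls. Of RPS2, 25.9% of the exon bases are shared with another gene.

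**Figure D3:**
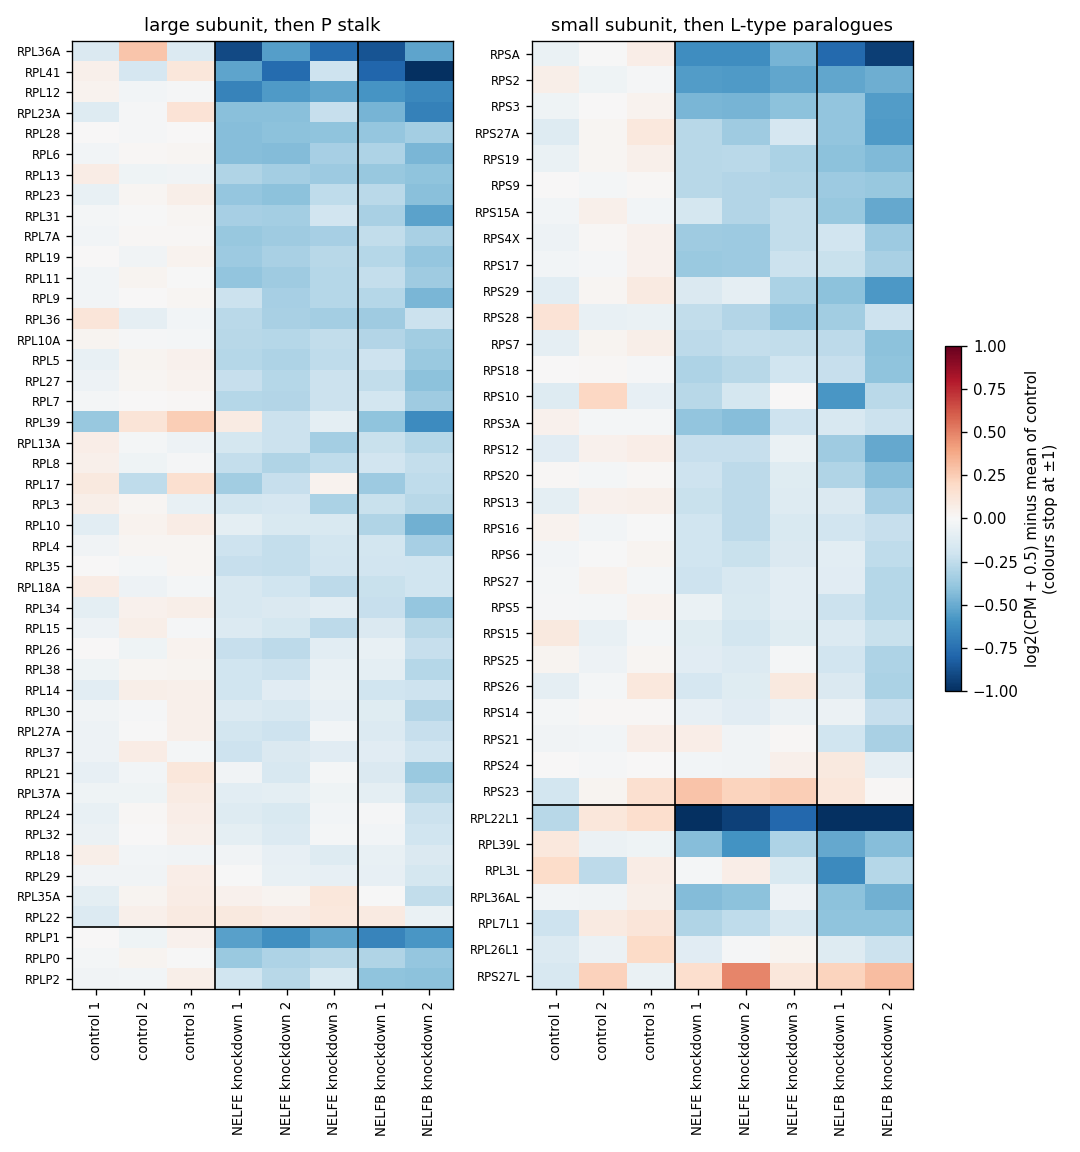
Log2(CPM + 0.5) minus the mean of the 3 control libraries for 82 of the 84 tested genes (rows, within each class in order of the pooled log2 fold change) in each of the 8 libraries (columns). Blue is below and red above the control mean, with colours that stop at 1 in either direction, and the large subunit and P stalk (left) and the small subunit (right) show blue in all 5 knockdown libraries for most genes.

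A minority of the family showed no decrease. RPS24, a small-subunit protein, was at 828, 819 and 825 CPM in control cells, 807, 802 and 853 CPM in the NELFE knockdown and 884 and 773 CPM in the NELFB knockdown, and its fitted change was 0.00 ± 0.06 (adjusted p = 0.996, edgeR). RPS23, which lies in the decoding centre, was at 322, 374 and 409 CPM in control cells, 447, 428 and 435 CPM in the NELFE knockdown and 396 and 369 CPM in the NELFB knockdown (0.17 ± 0.09, adjusted p = 0.174). Its NELFE libraries were above all control libraries while its NELFB libraries lay among them. RPS23 and RPS24 were chosen for mention after their values were seen. RPL22 was at 167, 189 and 195 CPM in control cells and between 175 and 197 CPM in the 5 knockdown libraries (0.06 ± 0.07, adjusted p = 0.582, edgeR). The groups overlapped in part, with the first control library below all others. RPL22 lay below 0, at -0.01, when the first control library was left out.

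The L-type paralogues behaved unlike each other. RPL22L1 is described above. RPL39L, the copy of RPL39 known from testis and some tumours, fell by 0.47 ± 0.09 on the log2 scale (adjusted p = 0.00472, edgeR), from 21.4, 19.0 and 19.3 CPM in control cells to 14.7, 13.0 and 15.9 CPM in the NELFE knockdown and 13.8 and 14.6 CPM in the NELFB knockdown. RPL39 itself was at 40.2, 57.3 and 62.2 CPM in control cells, 55.3, 45.1 and 48.8 CPM in the NELFE knockdown and 39.5 and 33.7 CPM in the NELFB knockdown (-0.26 ± 0.17, adjusted p = 0.281). The first control library lay within the range of the knockdown libraries for RPL39, whereas for RPL39L no library overlapped.

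RPL36AL fell by 0.35 ± 0.09 on the log2 scale (adjusted p = 0.0189, edgeR), from 106 CPM ± 3.94 (SD, n = 3) to 86.9 ± 13.6 (n = 3) and 77.9 ± 2.74 (n = 2). The decrease of RPL36AL missed the threshold when the second or the third control library was left out. RPL7L1, a paralogue of RPL7 that acts in ribosome assembly, fell by 0.31 ± 0.09 (adjusted p = 0.0233, edgeR), but its first control library at 287 CPM was below the third NELFE library at 297 CPM, and the call was lost without the second or the third control library or without either NELFB library. RPL7 fell by 0.27 ± 0.06 (adjusted p = 0.00927, edgeR) and kept the call without any 1 of the 8 libraries.

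The remaining pairs did not pass on the side of the paralogue. RPL26L1 changed by -0.09 ± 0.10 (adjusted p = 0.510, edgeR), and by 0.01 when the third control library was left out, and RPL26 by -0.18 ± 0.07 (adjusted p = 0.0635). RPL3L, the form of striated muscle, had 0.479 CPM ± 0.151 (SD, n = 3) in the control group and 0.449 ± 0.0735 (n = 3) and 0.211 ± 0.122 (n = 2), too low for a change to be called (-0.44 ± 0.40, adjusted p = 0.452), and RPL3 fell by 0.23 ± 0.07 (adjusted p = 0.0227) but not without the second control library. RPL10 changed by -0.23 ± 0.09 (adjusted p = 0.0777, edgeR), and 53.4% of its exon bases are shared with another gene. Taken singly, it was called lower in the NELFB knockdown (-0.39 ± 0.09, adjusted p = 0.0136, edgeR) and not in the NELFE knockdown (-0.14 ± 0.08, adjusted p = 0.258).

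RPS27L, a paralogue of RPS27 that is known as a p53 target, had the largest positive change in the family. It was at 77.3, 101 and 82.5 CPM in control cells, 97.4, 122 and 93.8 CPM in the NELFE knockdown and 101 and 107 CPM in the NELFB knockdown (0.26 ± 0.10, adjusted p = 0.0896, edgeR). The second control library lay within the range of the knockdown libraries, and without it the change was 0.38 and passed the test, with an adjusted p between 0.0115 and 0.247 over the alternatives tried. RPS27 itself changed by -0.17 ± 0.06 (adjusted p = 0.0603, edgeR), from 250, 261 and 251 CPM in control cells to 221, 227, 236, 235 and 209 CPM in the knockdown libraries.

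**Figure D4:**
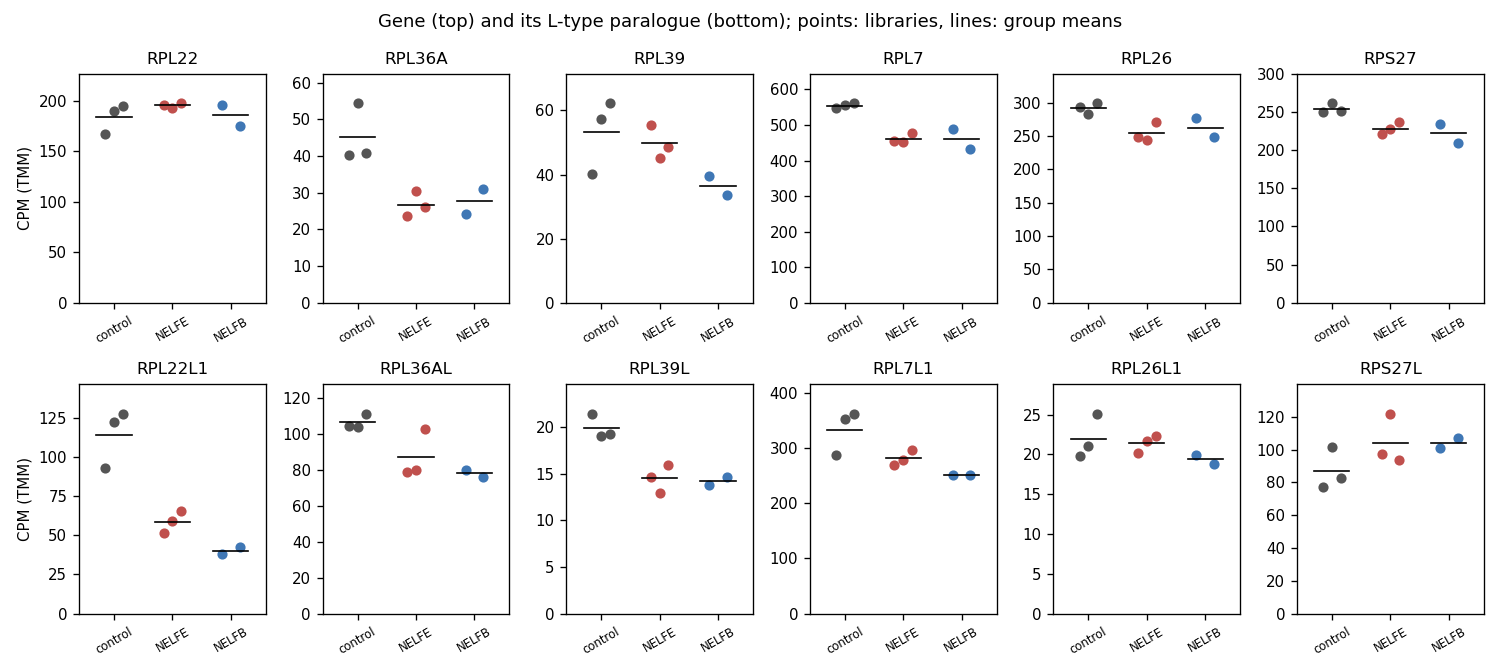
Levels in CPM of 6 ribosomal protein genes (top row) and their L-type paralogues (bottom row) in each library (points) with the mean of each group (lines), every axis from 0. RPL22 stays between 167 and 197 CPM in all libraries while RPL22L1 goes from 93.2 to 127 CPM in control cells down to 38.2 to 65.6 CPM in the knockdowns, and RPS27L has control and knockdown libraries that overlap.

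In control cells the 84 genes spanned a wide range per length of exon. In TPM, which divides counts by length and scales them to a common total, computed over all annotated exon bases of a gene, the median of the 84, taken in each control library and averaged over the 3, was 574, and 746 or 1346 with the length of the longest or of the canonical transcript, of which the last was added after the data were seen. RPS12, the highest of the standard genes by the first scale, was at 4546 TPM ± 252 (SD, n = 3), and RPS18, also among the highest, at 2478 ± 47.3 (n = 3). With the canonical length RPS18 was at 4815 TPM ± 139, above RPS12 at 3358 ± 152, so the order depends on the length that is used. With the L-type paralogues left out, the lowest by either scale were RPS10 at 10.4 TPM ± 1.48 (n = 3), RPL17 at 28.2 ± 4.25 (n = 3) and RPS15A at 41.6 ± 1.33 (n = 3) over all exon bases.

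The annotation of these genes is given beside their levels. RPS10 and RPL17 share 31.5% and 35.5% of their exon bases with other genes, of which their readthrough genes overlap them most. These shared bases, 730 and 871, outnumber the 588 and 614 bases of their canonical transcripts. The families have 14 and 49 named pseudogenes, the copies elsewhere in the genome that make a read ambiguous. RPS15A had 3.26% of its exon bases shared and 27 named pseudogenes. Their part in the low levels was not tested. Of the 3 genes that a readthrough gene covers, RPL36A fell, as given above, and the others had no called change, RPS10 at -0.28 ± 0.16 (adjusted p = 0.227, edgeR) and RPL17 at -0.24 ± 0.13 (adjusted p = 0.179). RPS15A fell by 0.32 ± 0.08 on the log2 scale (adjusted p = 0.0136), RPS18 by 0.28 ± 0.06 (adjusted p = 0.00862) and RPS12 by 0.28 ± 0.09 (adjusted p = 0.0475), all by edgeR's test. The call was lost for RPS15A without the second control library, and RPS12 kept it in 2 of the 8 fits with 1 library left out.

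Over the family, reads on the 1598 named pseudogenes of ribosomal protein genes amounted to 0.0188% of the counts in control cells, 0.0184% in the NELFE knockdown and 0.0177% in the NELFB knockdown. With these reads added to their parent genes, 52 genes again fell. Only unique reads were counted, so reads that match both a gene and its pseudogene are in neither count. This fit cannot address their loss. Of the 84 genes, 21 shared at least 10% of their exon bases with another gene. Among the other 63, a restriction made after the data were seen, 39 fell and 0 rose. In the main pooled fit 12.7% of all genes tested fell and 13.3% rose. Shares of all genes under the same restriction or with pseudogene reads added are not given here. The Spearman correlation of the fold change with the number of pseudogenes was -0.03 and with the shared exon bases -0.09, as a description over 84 genes.

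The knockdowns were also compared with control one at a time. In the NELFE knockdown 37 of the 84 genes fell and 0 rose (edgeR, adjusted p under 0.05), where 7.04% of all 16852 genes tested fell, 7.92% rose, and 9.55% of the fifth with the highest CPM fell. The median was -0.22 on the log2 scale. At an unadjusted p under 0.05, 54 were lower and 1 higher (15.1% and 15.8% of all genes), and DESeq2 called 44 lower and 0 higher (8.46% and 8.95% of all genes). The count fell to 16 without the second and 22 without the third control library. It fell to 12 without the first and 13 without the second NELFE library, and lay between 25 and 42 without any of the others. Shares of all genes called in such reduced fits are not given, here or for the NELFB knockdown. Whether the 84 genes lost calls more than other genes was not tested.

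In the NELFB knockdown 45 of the 84 genes fell and 0 rose (edgeR, adjusted p under 0.05), where 8.88% of all genes tested fell, 10.6% rose, and 14.1% of the fifth with the highest CPM fell. The median was -0.28. At an unadjusted p under 0.05, 64 were lower and 0 higher (16.7% and 18.1% of all genes), and DESeq2 called 54 lower and 0 higher (10.5% and 10.1% of all genes). Without the second control library 26 genes were called, without the third 29, and without the first or the second NELFB library 12 and 8, where a single library remained and was taken to vary like the other groups. Both comparisons use the same 3 control libraries and are therefore not independent. Of the genes called, 32 were called in both, 5 for NELFE but not NELFB and 13 for NELFB but not NELFE. Being called in one and not the other does not show a difference between them. The matching shares of all genes tested are not given here, so these counts are not read as particular to the family.

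The knockdowns were set against each other in the same model, without the control libraries in the contrast. None of the 84 genes passed by edgeR's adjusted p (0 lower and 0 higher in NELFE than in NELFB knockdown cells, against 0.0771% and 0.237% of all genes tested, 0.315% together), and DESeq2 called 0 in either direction (0.223% and 0.335% of all genes). At an unadjusted p under 0.05, 0 were lower and 10 higher in NELFE knockdown cells (3.13% and 1.99% of all genes). The fitted level was lower in the NELFB knockdown for 62 of the 84 genes, which share the same 2 NELFB libraries. The share of all genes in that direction is not given here. The median difference was 0.04 on the log2 scale, against -0.0055 over all genes tested. With single libraries left out this median of the 84 genes ran from 0.0139 to 0.12. The smallest adjusted p belonged to RPL22L1, RPS21 and RPSA.

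RPL22L1 was 0.54 ± 0.15 higher in NELFE than in NELFB knockdown cells on the log2 scale (adjusted p = 0.480, edgeR), as its decrease against control was -0.97 ± 0.13 (adjusted p = 0.00186) in the former and -1.50 ± 0.15 (adjusted p = 0.000265) in the latter. RPL22L1 passed this test when no filter on low counts was used, together with RPL41 and RPL39. RPS21, a small-subunit protein, was at 268, 269 and 288 CPM in control cells, 288, 268 and 277 CPM in the NELFE knockdown and 239 and 219 CPM in the NELFB knockdown, a difference of 0.27 ± 0.08 between the knockdowns (adjusted p = 0.566, edgeR). Its NELFE libraries overlapped the controls and its NELFB libraries did not. RPSA differed by 0.29 ± 0.09 (adjusted p = 0.690, edgeR), with decreases of -0.57 ± 0.08 and -0.86 ± 0.09 in the NELFE and NELFB knockdowns.

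Decreases were found among genes with and without the pyrimidine run shown above. Of the 59 tested genes with a run 35 fell, with a median log2 fold change of -0.25, and of the 8 tested genes without one in the window (RPL17, RPL26L1, RPL27, RPL6, RPL7L1, RPS27L, RPS29 and RPS4X) 4 fell, with a median of -0.29. In the same pooled comparison 12.7% of all genes tested fell. Of the windows printed, RPS24 has a run of 14 bases and RPL12 one of 6. Over the whole promoter window of 300 bases and on both strands, the TATA motif TATAAA was found in 11.4% of the 70 promoters and 14% of all promoters, the ETS motif CCGGAAG in 34.3% and 12.2%, and the YY1 motif CCATNTT in 27.1% and 18.6%. These are matches of letters and say nothing of binding.

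Other parts of the ribosome and of the translation apparatus were measured for context, in lists chosen with earlier results of these data known. The 3 ribosomal proteins whose symbols fall outside the naming rule gave 2 lower and 0 higher: RACK1, a scaffold on the small subunit, fell by 0.26 ± 0.06 (adjusted p = 0.00863, edgeR) and FAU, a ubiquitin-like fusion of a small-subunit protein, by 0.21 ± 0.06 (adjusted p = 0.0289). Of the other mRNAs with an oligopyrimidine tract 6 of 16 fell and 0 rose, with a median of -0.15, and EEF1G had no reads. The largest decreases were those of the nucleolar chaperone NPM1 (-0.36 ± 0.08, adjusted p = 0.00979), the initiation factor subunit EIF2S3 (-0.34 ± 0.06, adjusted p = 0.00314) and the splicing regulator HNRNPA1 (-0.31 ± 0.07, adjusted p = 0.00773). EEF1A1, the elongation factor that brings tRNA to the ribosome, changed by -0.05 ± 0.07 (adjusted p = 0.637).

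Of 31 ribosome biogenesis genes 9 fell and 0 rose, with a median of -0.22, led by the rRNA methyltransferase FBL (-0.52 ± 0.06), the nucleolar GTPase GNL3 (-0.48 ± 0.10) and the assembly factor NOP16 (-0.40 ± 0.12). RNA polymerase I and its factors had 4 of 14 lower and 0 higher, with a median of -0.08, led by TAF1D (-0.57 ± 0.10), POLR1G (-0.45 ± 0.13) and POLR1E (-0.39 ± 0.09). Of 7 chaperones that carry single ribosomal proteins to the assembly sites 0 passed (median -0.13). The mitochondrial ribosomal proteins, which are translated in the cytosol but serve the ribosome of another compartment, had 18 of 78 lower and 2 higher, with a median of -0.16. All of these counts come from the pooled comparison by edgeR, in which 12.7% of all genes fell.

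Among 12 regulators of oligopyrimidine-tract mRNAs 2 fell and 2 rose, with a median of -0.02, shares near those of all genes tested (12.7% and 13.3%). EIF4EBP1, the repressor of cap-dependent translation that mTOR inactivates, fell by 0.90 ± 0.08 on the log2 scale (adjusted p = 7.63e-05, edgeR), from 89.1 CPM in the mean of control cells to 47.7 and 47.8 CPM. EIF4E, the cap-binding protein, fell by 0.33 ± 0.08 (adjusted p = 0.0120). TIA1, which binds such mRNAs under stress, rose by 0.28 ± 0.06 (adjusted p = 0.00782), and MTOR rose by 0.25 ± 0.06 (adjusted p = 0.0149).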

How the data were processed

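Polyadenylated RNA of 3 control, 3 NELFE and 2 NELFB knockdown libraries was sequenced by the authors as single-end reads of 65 bases. The deposited values are raw counts per gene, which the authors made with STAR 2.5.4a on GRCh38 and Gencode v24, with FastQC 0.11.6 named for quality control. STAR counts unique reads that overlap 1 gene, without strand here. GENCODE v44 gave symbols and exons, matched on the Ensembl identifier (99.9% of counts). The tests used edgeR 4.0.16 under R 4.3.3, with filterByExpr, TMM factors, the quasi-likelihood fit in its robust form and Benjamini-Hochberg adjustment over all genes, and a gene was called at an adjusted p under 0.05. A model of 2 groups gave the pooled comparison and one of 3 groups the single knockdowns. The scripts were tested on simulated data.

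The genes, lists and tests were chosen with earlier results of these data known. Genes named are the 6 largest changes among called genes in each direction, the 3 smallest p between knockdowns, paralogue pairs, the 3 highest and lowest by TPM, the P stalk, RPSA, RPL5, RPL11, RPS19, readthrough genes, guide targets and at most 3 called genes of each list. Others are named for their values, and a few genes that the rule names are not reported here. The study describes the replicates as biological, so p-values measure the spread between cultures of 1 clone. Alternatives were DESeq2 1.42.0, other normalization factors and filters, the replicate block, other models, a prior count of 2, added pseudogene reads and each library left out.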

Additional observations from a re-analysis of the deposited data

How the results depend on the processing

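The count of ribosomal protein genes that fell in the pooled comparison lay between 48 and 57 under DESeq2, DESeq2 size factors, TMM factors made without these genes, upper quartile factors, other filters, the replicate block, added pseudogene reads and the model of 3 groups, and between 37 and 61 with single libraries left out. For the NELFE knockdown leaving out single libraries gave 12 to 42 lower and 0 to 1 higher, and for the NELFB knockdown 8 to 50 lower, with medians from -0.35 to -0.24. The pooled comparison had 1 gene higher without a filter on low counts and 0 to 1 with single libraries left out, in each case RPS27L. Upper quartile factors gave 1 gene higher in the NELFE knockdown, RPS23. Between the knockdowns 3 genes differed without a filter, and the median difference ran from 0.0139 to 0.12 with single libraries left out. Shares of all genes called in these alternative fits are not given here, and the cause of these changes was not tested. The median level, averaged over the control libraries, was 746 TPM with the longest and 1346 TPM with the canonical transcript, the latter added after the data were seen, against 574. Over protein-coding genes the share of counts was 5.14% in control, 4.41% in NELFE knockdown and 4.31% in NELFB knockdown cells. The log2 fold change of RPL22 ran from -0.0115 without the first control library to 0.10, and that of RPL26L1 from -0.17 to 0.0107 without the third. The alternatives gave 557 values of the pooled comparison for the ribosomal protein genes that were named by rule. Of these, 522 kept their direction and side of the threshold, 21 lost the call, 12 gained it and 2 changed sign. Genes named for their values, such as RPS2, RPS3, RPS23 and RPS24, are not among them.

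The labels number the replicates alike in each group. Same-numbered libraries had correlations of their deviations from the group mean of 0.40, 0.07 and 0.61 between control and NELFE. They were -0.05 and -0.02 between control and NELFB, and 0.12 and 0.29 between NELFE and NELFB. The 2 NELFB libraries deviate from their mean by equal and opposite amounts, so their correlations carry little information. As the values were mixed, the numbers were not taken to pair the samples. Each control library correlated best with the NELFE library of its own number, which is a hint from the data and not the design. With the replicate block 57 genes fell and 1 rose (RPS27L) in the pooled comparison, 52 fell and 2 rose (RPS23 and RPS27L) in the NELFE knockdown, 53 fell in the NELFB knockdown, and 1 differed between the knockdowns, RPL22L1. The median SE of the 84 log2 fold changes was 0.07 in the pooled comparison and 0.08 in the NELFB knockdown, and the smallest decrease called in the pooled comparison was -0.19, so smaller changes may have been missed.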
